A study of Mus musculus with 24 samples.

Results

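Potassium channel genes were followed in the mouse hippocampus with and without fear conditioning, at 3 and at 16 months of age. They were taken as all array probes whose gene name begins with Kcn, leaving out Kcne2, Kcnj13 and the Kcnip, Kcnmb and Kcnab genes. The first pair mark choroid plexus and the others encode auxiliary proteins. This gave 114 probes for 75 genes among 41174 probes that are no controls. Of these, 109 probes for 73 genes were well above background on at least 4 of the 24 arrays, as were 38768 of all probes, and 92 of the 109 were so on every array. The filter left out the probes of Kcnv2 and Kcnj5 and 1 probe each of Kcne1, Kcnh7 and Kcnj15; Kcnj5 was above background on 1 array and the others on 0. Just inside it lay a Kcng3 probe on 13 arrays, and a Kcnj6 and a Kcnk5 probe on 16 each. A group summary over the 109 probes is therefore no statement on the probes that were too dim.

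Each array held the hippocampal RNA of 1 C57Bl/6 mouse, and each of the 6 groups held 4 mice. Control mice, 3 or 16 months old, were handled and met no training. Fear-conditioned mice of both ages spent 3 min in an unfamiliar chamber and then received a foot shock of 0.7 mA for 2 s. The remaining groups were 3 months old: context mice explored the chamber with no shock, and shock-context mice were shocked on entry and explored afterwards. Tissue was taken 1 h after treatment. The whole hippocampus is a mixture of cells, so fewer cells of a type and less RNA per cell cannot be told apart.

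Potassium channels let potassium leave the cell and so return a neuron to rest after a spike, set its resting potential and limit how often it fires. Kcna, Kcnb, Kcnc, Kcnd, Kcnh and Kcnq channels open on depolarization, Kcnj channels pass current mainly inward, Kcnk channels leak at all voltages, and Kcnma1 and Kcnn channels open when calcium rises. In hippocampal pyramidal cells Kcna and Kcnd channels shape dendritic signals and Kcnq and Kcnn channels slow repeated firing.

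A probe's level is its log2 signal minus the 75th percentile of its own array, so a change of 1 is a doubling and levels of different probes are not compared. Changes are differences of group means ± the standard error of a limma fit over all 24 arrays, with p-values adjusted by Benjamini-Hochberg over all 38768 probes, and a change was called below 0.05. A gene with several probes is named by its brightest one unless a probe is named. The probes on which the results turn are shown next by their first 30 of 60 bases, with their mm9 positions as the array design gives them; they are shown because probes of 1 gene at separate positions did not always move together. Whether a position is exonic, intronic or in a UTR was not assigned here. Kcnk2 lies at chr1:191032758-191032817 on the minus strand and Kcna3 at chr3:106840513-106840572 on the plus strand. The Kcnh7 probes lie at chr2:62625189-62625248 (upstream) and chr2:62574171-62574230 (downstream), both on the minus strand. The Kcnj4 probes lie at chr15:79315390-79315449 (upstream) and chr15:79314133-79314157 (downstream), also on the minus strand. The Kcnh3 probes lie at chr15:99071628-99071687 (upstream) and chr15:99072213-99072365 (downstream), on the plus strand. The Kcnc1 probes, on the plus strand, start at 53682767, 53688225 and 53693712 of chromosome 7. The Kcnj12 probe lies at chr11:60884085-60884143 and the Kcnk7 probe at chr19:5707017-5707076, both on the plus strand.
Kcnk2 (A_51_P487027): tttttaaaggcagaagaagacatgagcaca
Kcna3 (A_51_P198583): agtagtaaccatgacaactgttggttatgg
Kcnh7 upstream (A_52_P408230): actatgaaaaatgtagtaccttatgaaatt
Kcnh7 downstream (A_51_P513969): aatgatatctttggggaaatggttcatctt
Kcnj4 upstream (A_52_P4285): cttggtgtcacccatcatcatagtgcatga
Kcnj4 downstream (A_51_P166740): gcatgactgtggtctgtgctcttgattctc
Kcnh3 upstream (A_52_P1179609): ccctccgtcttgattccggtctataaaatg
Kcnh3 downstream (A_52_P570330): agtgaagcaagaaacacagacacgctggac
Kcnc1 upstream (A_52_P592305): tgtctggagactcacgagcgcttcaacccc
Kcnc1 middle (A_52_P422050): tccttctctggacaagaagagcaggctatg
Kcnc1 downstream (A_52_P867058): gagattcgagcatgaaataaattttgtaac
Kcnj12 (A_51_P325941): tagtctttttcatgttttttcgcagtagct
Kcnk7 (A_51_P354018): agaacatagcaggaaggagttatgggaatg

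The control and fear arrays lay on 4 slides, with 1 array of each of these 4 groups per slide, and were scanned in 1 run. The context and shock-context arrays lay on 2 further slides scanned in another run, in which 75.1% to 81.4% of probes were well above background against 86.2% to 93.8% in the first run. All 12 hippocampal excitatory neuron markers on the list were detected in every group. Choroid plexus markers differed between groups: the sum of their linear levels, relative to each array's 75th percentile, was 14.2 to 19.7 on the young fear arrays, 102 to 168 on the young control arrays, 104 to 169 on the old control arrays and 98.8 to 115 on the old fear arrays. In young fear against young control, 17 of 17 measured choroid plexus markers fell, and 13 of 18 thalamic markers rose while 1 fell, with summed thalamic levels of 63.8 to 72.9 against 43.4 to 49.1. Thalamic levels were also higher in old fear mice, at 57.7 to 72.5 against 45.4 to 49.5 in old control mice, and 6 of the 18 markers rose there. The part of either in the channel results was not tested. Old control array 2 carried a patch of dim spots in rows 209 to 321 and columns 33 to 54 of its grid, with 10 channel probes inside it; for several of these, values with the patch set to missing are given as well, a check chosen after seeing the data.

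**Figure D1:**
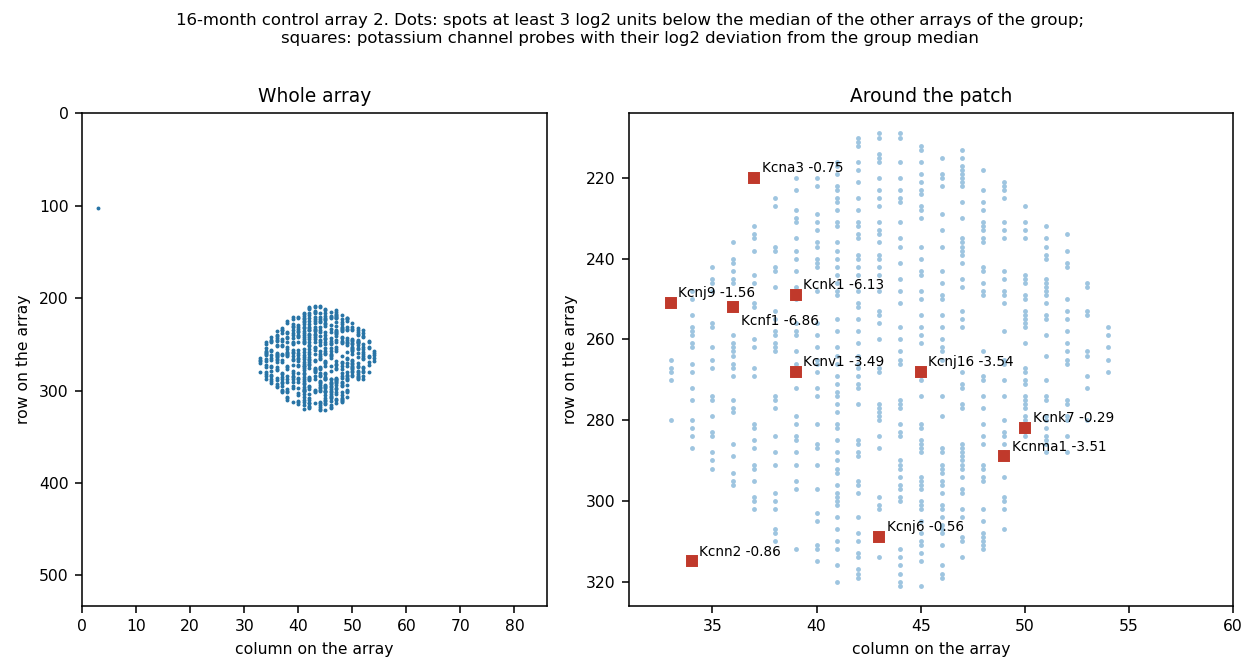
Map of old control array 2, grid column against grid row, with the spots that read far below the other arrays of its group and the channel probes inside the patch marked. All but 1 of the low spots lie together in rows 209 to 321 and columns 33 to 54, and 10 channel probes fall in that box.

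Fear conditioning at 3 months was followed by changes in both directions. Of the 109 probes, 25 rose and 24 fell, against 44.6% of all probes called (17.2% rose, 27.5% fell), so the number called was near the background. With quantile normalization 32 rose and 17 fell, against 8727 and 7973 of all probes. The deposited values gave 30 rises and 14 falls, against 7811 and 7447 of all probes. The median change was -0.07 over the channel probes and -0.27 over all probes, and quantile normalization brings the latter to -0.08, so signs of small changes depend on the scaling. In 47 channel probes the arrays of both groups did not overlap, against 42% of all probes.

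**Figure D2:**
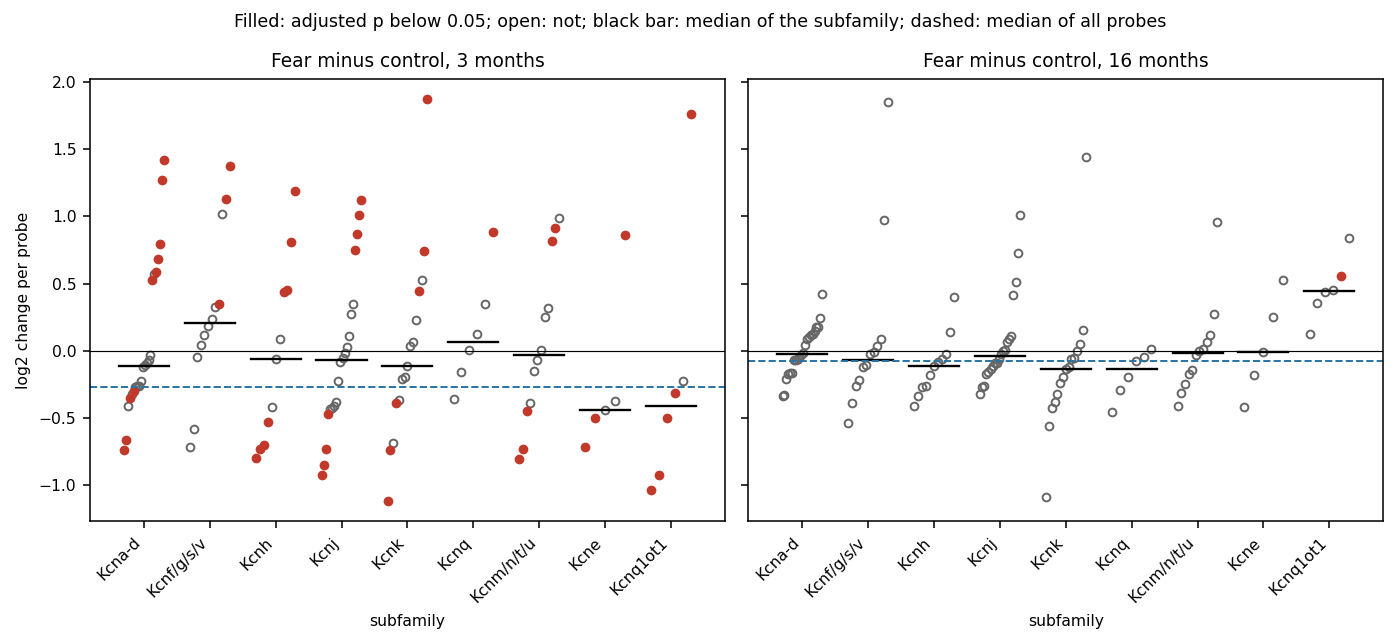
Log2 change after fear conditioning for each of the 109 probes, by subfamily, at 3 months and at 16 months; filled points have an adjusted p below 0.05, black bars are subfamily medians and the dashed line is the median of all probes (-0.27 and -0.07). Points spread to both sides at 3 months, with 25 rises and 24 falls, and 1 point is filled at 16 months.

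Among the leak channels, Kcnk2, a channel opened by stretch and arachidonic acid, showed the largest rise of all 109 probes. Its levels were -2.44, -2.40, -2.10 and -2.53 in young control mice and -0.49, -0.54, -0.53 and -0.42 in young fear mice. In old control mice they were -2.60, -2.50, -2.57 and -2.62, and in old fear mice -2.56, -2.51, -2.78 and -2.70. All 4 young fear arrays lay far above every other array of that run, and the other 3 groups lay close together. The young change was 1.88 ± 0.12 (3.67-fold, adjusted p = 7.13e-10), higher on 4 of 4 slides, and the old change was -0.06 ± 0.12 (adjusted p = 0.845). The difference between the ages, old change minus young change, was -1.94 ± 0.17 (adjusted p = 3.25e-07).

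Of the other leak channels, both probes of Kcnk3, an acid-sensitive background channel, rose, by 0.44 ± 0.12 and 0.74 ± 0.17. Kcnk7, a member with no known current of its own, fell: its levels were -5.44, -4.76, -5.49 and -5.27 in young control and -6.72, -6.12, -6.23 and -6.39 in young fear mice. The groups did not overlap, and the change was -1.12 ± 0.25 (adjusted p = 0.00116), lower on 4 of 4 slides; with normexp background correction it was -1.08 (adjusted p = 0.262) and with the deposited values -0.28 (adjusted p = 0.0612). The dimmer Kcnk7 probe, in the dim patch, fell by 0.74 ± 0.29 (adjusted p = 0.0422). Kcnk4 fell by 0.39. Over the 15 Kcnk probes 3 rose and 3 fell. Kcnk1, a weak inward leak channel, changed by 0.53 ± 0.84 (adjusted p = 0.612), with 1 array in the dim patch at -3.75; with the patch set to missing the change was 0.53 ± 0.20 (adjusted p = 0.0331).

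Among the inward rectifiers, 4 of 20 probes rose and 4 fell. Kcnj6, a subunit of the G-protein-gated channels that carry slow inhibitory currents, read -2.39, -2.36, -1.93 and -1.92 in young control and -1.67, -1.64, -1.12 and -1.16 in young fear mice. In old control mice it read -1.71, -1.51, -2.35 and -2.19 and in old fear mice -1.98, -2.00, -2.05 and -2.19. The young groups did not overlap, while the old fear arrays lay within the range of the old controls. The young rise was 0.75 ± 0.17 (1.69-fold, adjusted p = 0.00109), and the age difference was -0.87 (adjusted p = 0.00996). With normexp they were 0.46 (adjusted p = 0.229) and -0.62 (adjusted p = 0.441). The dimmer Kcnj6 probe, in the dim patch and well above background on 16 arrays, showed neither. It changed by -0.05 (adjusted p = 0.874), with an age difference of 0.16 (adjusted p = 0.789), or 0.02 with the patch set to missing. Kcnj3, the partner subunit of Kcnj6, changed by 0.27 (adjusted p = 0.193). It was called as a rise with median scaling (0.41, adjusted p = 0.048), normexp (0.42, adjusted p = 0.024) and the deposited values (0.48, adjusted p = 0.00176). A dimmer probe of Kcnj9, the third brain subunit, fell by 0.92 ± 0.17, and its brighter probe, in the dim patch, changed by -0.08 (adjusted p = 0.776, and 0.461 with the patch set to missing).

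Kcnj12, a strong rectifier that holds the resting potential, moved the other way. It read -1.92, -1.90, -1.06 and -1.32 in young control mice and -2.55, -2.32, -2.37 and -2.36 in young fear mice. In old control mice it read -1.61, -1.45, -1.69 and -1.46, and in old fear mice -1.42, -1.38, -0.83 and -0.89. The young fear arrays were the lowest of the run and the old fear arrays were all above the old controls. The young fall was -0.85 ± 0.19 (1.80-fold lower, adjusted p = 0.00129), the old change 0.42 (adjusted p = 0.358) and the age difference 1.27 ± 0.28 (adjusted p = 0.0017).

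Kcnj8, the pore of ATP-sensitive channels in vascular cells, fell as well. Its levels were 0.24, 0.18, 0.48 and 0.15 in young control and -0.42, -0.36, -0.57 and -0.53 in young fear mice, with no overlap. The change was -0.73 ± 0.11 (adjusted p = 1.21e-05), and a second probe changed by -0.43 (adjusted p = 0.0949). Of the endothelial and mural markers, 5 rose and 3 fell in the same comparison, with summed levels of 27.3 to 36.3 in young control and 28.5 to 30.7 in young fear mice. Kcnj10, the main rectifier of astrocytes, changed by -0.02 (adjusted p = 0.917) in the fit; quantile normalization and the deposited values gave called rises of 0.28 and 0.32. For Kcnj16, which pairs with Kcnj10, 2 of 3 probes rose, by 1.01 ± 0.14 and 0.87 ± 0.18, and the brightest, inside the dim patch, changed by 0.35 ± 0.52 (adjusted p = 0.584), or ± 0.17 (adjusted p = 0.0983) with the patch set to missing. Of 12 astrocyte markers 2 rose and 5 fell in the same comparison, with summed levels of 183 to 219 in young control and 133 to 146 in young fear mice. Their part in the Kcnj10 and Kcnj16 values was not tested.

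**Figure D3:**
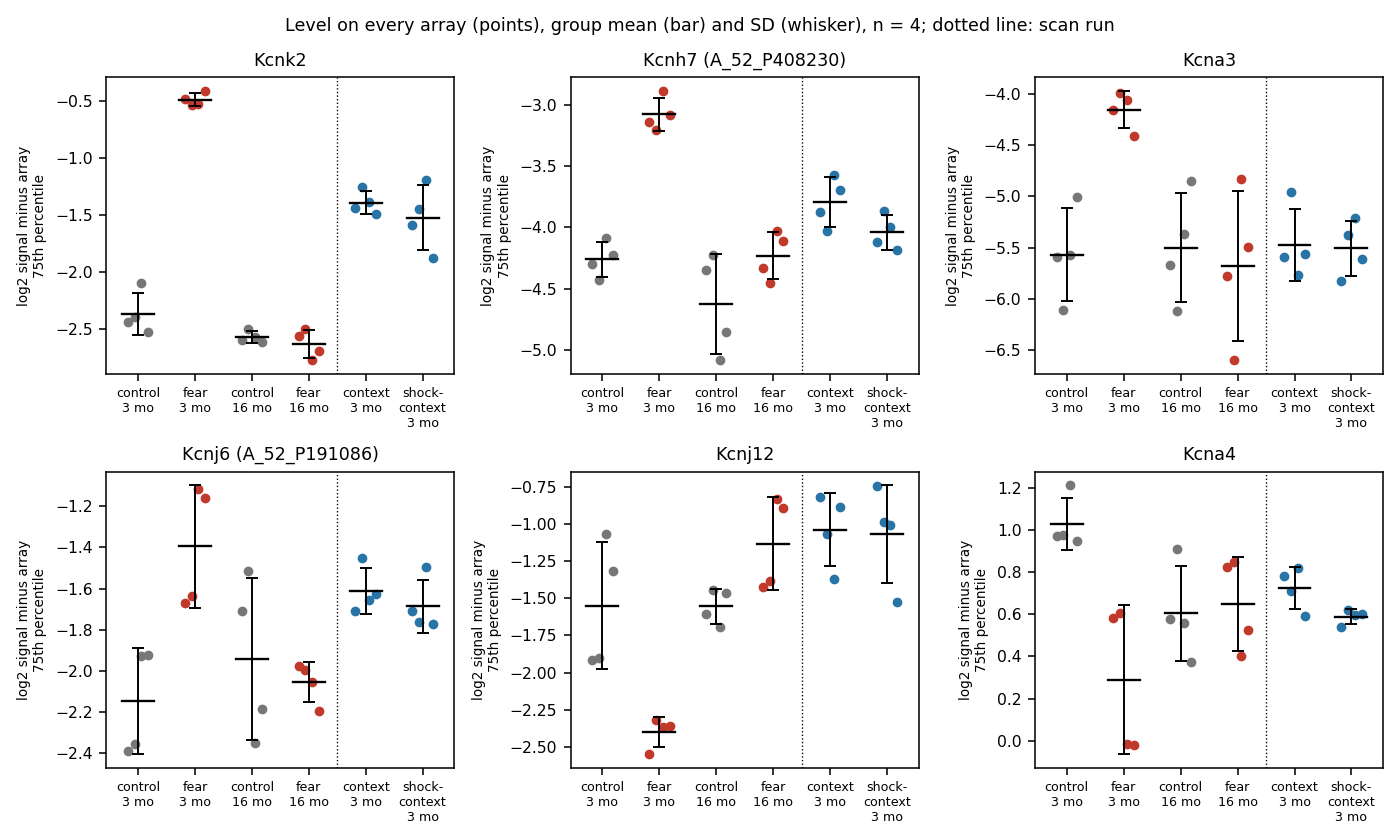
Level of 6 channel probes (log2 signal minus the array's 75th percentile) on each array of the 6 groups; points are mice, bars group means, whiskers 1 SD, and the dotted line separates the scan runs. The 4 young fear arrays of Kcnk2 sit between -0.54 and -0.42, above every other array, and those of Kcnj12 sit between -2.55 and -2.32, below every other array.

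Of 22 probes of the Kcna to Kcnd channels, 6 rose and 4 fell. Kcna3, best known from lymphocytes and microglia, was dim, at -5.59, -6.11, -5.57 and -5.00 in young control and -4.15, -3.99, -4.05 and -4.40 in young fear mice. The young groups did not overlap and the old fear arrays ranged from -6.60 to -4.83. The rise was 1.42 ± 0.31 (2.68-fold, adjusted p = 0.000827) and the age difference -1.60 ± 0.44 (adjusted p = 0.0096), or -1.80 ± 0.43 with the dim patch, which holds the probe, set to missing. With normexp the young change was -0.03, so the direction of this dim probe rests on the background correction. Microglial markers, of which 2 rose and 4 fell, had summed levels of 32.9 to 40.5 in young control and 26.2 to 28.3 in young fear mice.

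Kcna4, an axonal A-type channel that inactivates fast, read 0.97, 0.98, 1.21 and 0.95 in young control and 0.58, 0.61, -0.01 and -0.02 in young fear mice. The groups did not overlap, and it fell by 0.74 ± 0.15 (adjusted p = 0.000337), with an age difference of 0.78 (adjusted p = 0.00751). Kcna6 fell by 0.66 ± 0.14 and Kcnb2 by 0.35 ± 0.14. Kcnd2, the dendritic A-type channel of pyramidal cells, fell by 0.30 ± 0.12 (adjusted p = 0.0476); quantile normalization gave 0.02, so this direction turns with the scaling, and the call was lost in 4 of 8 fits that leave out an array. Kcna1 and Kcna2, which set spike threshold and repolarization, changed by -0.32 (adjusted p = 0.139) and -0.11 (adjusted p = 0.604).

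The Kcnc genes, whose channels allow fast spiking in interneurons, held 5 of these 6 rises. Kcnc2 read 1.58, 1.41, 1.10 and 1.42 in young control and 1.81, 1.97, 2.11 and 1.95 in young fear mice. The groups did not overlap, and it rose by 0.58 ± 0.10 (adjusted p = 7.49e-05), as did Kcnc4 by 0.68 ± 0.13. Interneuron markers moved both ways, 3 up and 4 down of 12. Kcnc1 differed by probe. Its middle probe, A_52_P422050, read -0.95, -0.93, -0.82 and -0.90 in young control and 0.37, 0.28, 0.37 and 0.46 in young fear mice, a rise of 1.27 ± 0.13 (adjusted p = 1.66e-07). Its downstream and brightest probe, A_52_P867058, read 2.11, 2.28, 1.58 and 2.03 against 1.73, 1.77, 1.74 and 1.68, a change of -0.27 (adjusted p = 0.0873). The middle probe separated the groups and the downstream one did not. Their age differences were of opposite sign, at -1.34 (adjusted p = 2.41e-05) and 0.70 (adjusted p = 0.00596). The latter was 0.62 (adjusted p = 0.0523) with median scaling and 0.56 (adjusted p = 0.16) with normexp. The upstream Kcnc1 probe, A_52_P592305, was not called in the age difference.

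In the ether-a-go-go family, 4 of 11 probes rose and 4 fell, and both Kcnh7 and Kcnh3 had probes going each way. The upstream Kcnh7 probe, A_52_P408230, read -4.30, -4.43, -4.09 and -4.23 in young control and -3.13, -3.20, -2.88 and -3.08 in young fear mice. The downstream one, A_51_P513969, read -5.27, -5.59, -4.61 and -4.93 and then -6.21, -5.64, -5.64 and -6.11. Neither probe's groups overlapped; the upstream one rose by 1.19 ± 0.16 (adjusted p = 4.41e-06) and the downstream one changed by -0.80 ± 0.23 (adjusted p = 0.00688). At 16 months the upstream change was 0.40 (adjusted p = 0.294), and the age difference was -0.79 (adjusted p = 0.0125); with normexp the age difference was -0.10 (adjusted p = 0.928) and the young change 0.26 (adjusted p = 0.701). The downstream fall was -0.49 (adjusted p = 0.0675) with quantile normalization, -0.98 (adjusted p = 0.286) with normexp and -0.23 (adjusted p = 0.149) with the deposited values.

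Kcnh3, a forebrain member of this family, showed the reverse order along the gene. Its downstream probe read -2.18, -2.15, -1.70 and -1.75 in young control and -1.09, -1.19, -1.39 and -0.87 in young fear mice, a rise of 0.81 ± 0.14 (adjusted p = 7.25e-05), which was 0.50 (adjusted p = 0.194) with normexp. Its upstream probe read -1.48, -1.46, -1.18 and -1.33 and then -2.08, -2.06, -2.13 and -2.02, a fall of -0.71 ± 0.12 (adjusted p = 6.48e-05). Both separated the groups, on 4 of 4 slides each. The age differences were -0.92 (adjusted p = 0.0014) and 0.53 (adjusted p = 0.0244). With normexp they were -0.75 (adjusted p = 0.286) and 0.55 (adjusted p = 0.295), and the upstream one was 0.45 (adjusted p = 0.0686) with median scaling and was lost in 3 of 16 fits that leave out an array. Kcnh6 fell by 0.73 and Kcnh4 by 0.53, and Kcnh8 rose by 0.45.

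Kcnj4, a strong rectifier of forebrain neurons, was the other channel with called probes in opposite directions. Its upstream probe read -1.95, -1.96, -1.41 and -1.49 in young control and -0.64, -0.69, -0.50 and -0.51 in young fear mice, a rise of 1.12 ± 0.12 (adjusted p = 3.43e-07). Its downstream probe read 4.10, 4.11, 4.24 and 3.99 and then 3.89, 3.88, 3.47 and 3.31, a fall of -0.47 ± 0.13 (adjusted p = 0.00616), which was -0.12 (adjusted p = 0.426) with quantile normalization, -0.33 (adjusted p = 0.124) with median scaling and -0.28 (adjusted p = 0.123) with the deposited values. Of 9 member genes with at least 2 called probes, 4 had them in opposite directions (44.4%), against 1167 of 3006 genes on the whole array (38.8%), a similar share.

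**Figure D4:**
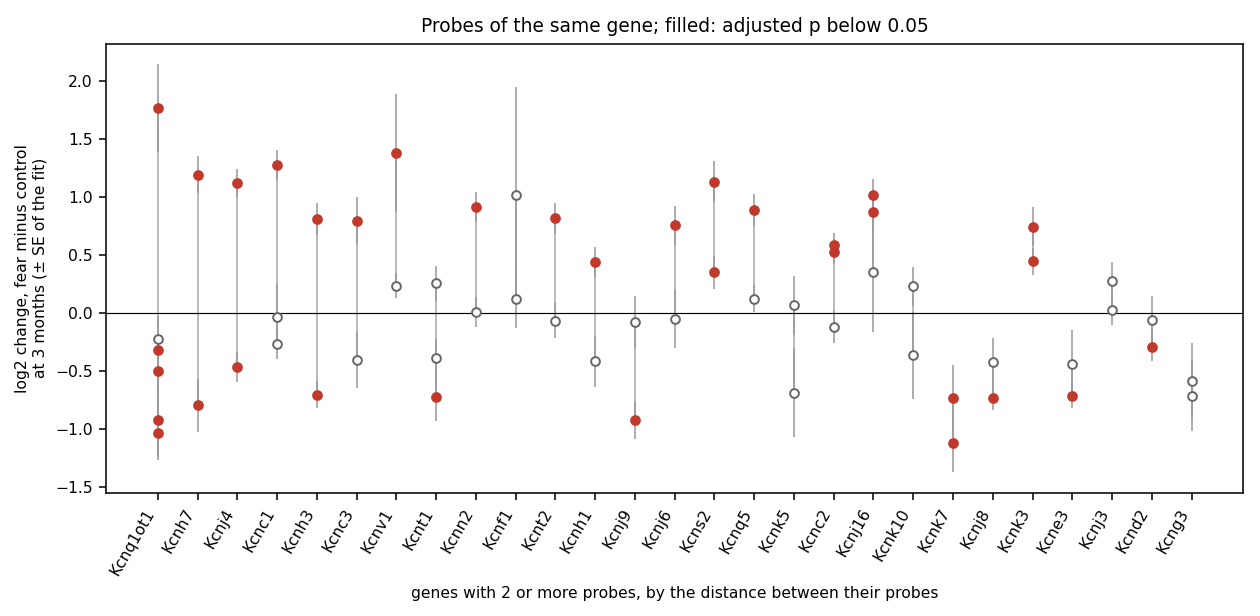
Log2 change ± SE in young fear against young control for every probe of 27 of the 28 genes with at least 2 probes, 1 gene per column. Kcnh7, Kcnh3, Kcnj4 and Kcnq1ot1 have called probes on both sides of 0.

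Kcnq channels, which carry the M-current that slows repeated firing, held 1 rise and no fall among 6 probes: the dimmer Kcnq5 probe rose by 0.88 ± 0.14. Kcnq3 changed by 0.35 (adjusted p = 0.122). It was called as a rise with quantile normalization (0.68, adjusted p = 0.00234), median scaling (0.49, adjusted p = 0.0216) and the deposited values (0.38, adjusted p = 0.0161), and was -0.30 (adjusted p = 0.622) with normexp. The brighter Kcnq5 probe changed by 0.12 (adjusted p = 0.396).

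Of the calcium- and sodium-gated channels, 2 of 12 probes rose and 3 fell. Kcnma1, the large-conductance channel that joins voltage and calcium in ending a spike, read -0.39, -0.64, -0.50 and -0.02 in young control and 0.50, 0.44, 0.69 and 0.77 in young fear mice. In old control mice it read 0.20, -3.67, -0.16 and -0.41, and in old fear mice 0.01, -0.23, -0.02 and 0.05. The young groups did not overlap, and the value of -3.67 comes from the dim patch. That spot widens the spread for every group: the young change was 0.99 ± 0.50 (adjusted p = 0.114) in the fit and 0.99 ± 0.15 (adjusted p = 1.93e-05) with the patch set to missing, and the age difference went from -0.03 (adjusted p = 0.982) to -0.92 (adjusted p = 0.00362). Kcnn2, a small-conductance channel of the afterhyperpolarization, changed by 0.00 (adjusted p = 0.983) at its brighter probe and rose by 0.91 ± 0.13 at the other. Kcnt2 rose by 0.81 at its dimmer probe. Kcnn4, a channel of blood and vascular cells, read -4.02, -3.27, -2.81 and -3.43 in young control and -4.72, -4.31, -3.89 and -3.83 in young fear mice; these ranges overlap, and the fall was -0.81 ± 0.29 (adjusted p = 0.0298), lost in 4 of 8 fits that leave out an array and with normexp (-0.85, adjusted p = 0.244).

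The silent Kcnf, Kcng, Kcns and Kcnv subunits, which alter Kcnb channels and pass no current alone, held 3 rises and no fall among 12 probes. Both Kcns2 probes rose, by 0.35 and 1.13 ± 0.18, and a Kcnv1 probe inside the dim patch by 1.37 ± 0.51 (± 0.26 with the patch set to missing). The brighter Kcnf1 probe, A_52_P203316, is another of the dim patch: its change of 1.02 ± 0.93 (adjusted p = 0.373) became 1.02 ± 0.15 (adjusted p = 1.24e-05) with the patch set to missing. The age difference of this Kcnf1 probe then went from 0.83 (adjusted p = 0.699) to -0.86 (adjusted p = 0.00527). That of the Kcnv1 probe went from -0.40 (adjusted p = 0.735) to -1.21 (adjusted p = 0.0219). Among the Kcne subunits, small proteins that alter gating, Kcne4 read -4.51, -4.55, -4.44 and -4.30 in young control and -3.57, -3.41, -3.65 and -3.72 in young fear mice. It rose by 0.86 ± 0.16 (adjusted p = 0.00018) with no overlap, although its change was -0.01 with normexp. Kcne1l and a probe of Kcne3 fell, by 0.50 and 0.71.

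Kcnq1ot1 is not a channel but a long noncoding RNA that silences genes around Kcnq1, and its 6 probes entered by name. In young fear against young control 4 probes fell, by between 0.32 and 1.04, and 1 rose, A_52_P534609, by 1.76 ± 0.38 (adjusted p = 0.000734), although it was -0.55 with normexp. Of the falls, that of A_52_P618494 (-0.50) was lost in 5 of 8 fits that leave out an array and under 6 other settings, and that of A_51_P232763 (-0.93) in 4 of 8 and under normexp, the deposited values and array pairs as a block. The brightest, A_52_P619388, read 0.99, 1.14, 0.84 and 1.06 in young control and 0.60, 0.57, 0.76 and 0.82 in young fear mice. In old control mice it read 0.97, 0.69, 0.59 and 0.57, and in old fear mice 1.22, 1.28, 1.24 and 1.29. The young fear arrays lay below their controls and the old fear arrays above theirs. The young change was -0.32, not called with median scaling (-0.18), normexp, the deposited values or the compared arrays alone. The old change was 0.55 ± 0.09 (adjusted p = 0.0172) and the age difference 0.87 (adjusted p = 7.56e-05). The old call was lost in 5 of 8 fits that leave out an array and with the arrays of the compared groups alone. It was also lost with normexp (0.42), the deposited values (0.45, adjusted p = 0.0862) and array pairs as a block (adjusted p = 0.15).

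That noncoding RNA was the 1 of the 109 probes called at 16 months, against 0.126% of all probes (0.111% higher, 0.0155% lower), and no channel gene was called. At an unadjusted p below 0.05, 15 probes passed (13.8%, against 13.3% of all probes), and 11 had groups that did not overlap (7.68% of all probes). With only the brightest probe of each channel gene, the smallest p-values were those of Kcnn1, at -0.41 (adjusted p = 0.15), and the downstream Kcnc1 probe, at 0.43 (adjusted p = 0.171). The response itself differed between the ages for 33 probes, 16 with a higher and 17 with a lower change at 16 months, against 25.9% of all probes (14.3% higher, 11.5% lower). With quantile normalization the split was 11 higher and 24 lower, against 4570 and 5748 of all probes. Besides Kcnk2, Kcnj12 and the others above, Kcne1l differed by 0.76 (adjusted p = 0.00103), and Kcnk7 by 1.00 (adjusted p = 0.0444). The dimmer Kcnk7 probe differed by 0.36 (adjusted p = 0.579), or 0.31 with the dim patch set to missing. The Kcnk7 call was lost with the replicate number, here also the slide, as a block (adjusted p = 0.0517), with array pairs as a block, quantile and median scaling and normexp (0.84 to 1.06), with the deposited values (0.17, adjusted p = 0.538), and in 11 of 16 fits that leave out an array.

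Between the control groups of 3 and 16 months no channel probe was called by limma, against 0.547% of all probes (0.356% higher, 0.191% lower). At an unadjusted p below 0.05, 9 passed (8.26%, against 9.15% of all probes), and 5 probes had groups that did not overlap (3.74% of all probes). With only the brightest probe of each channel gene, those of smallest p changed by 0.45 for Kcnk13, a halothane-inhibited leak channel (adjusted p = 0.198), and -0.41 for Kcnn2 (adjusted p = 0.21).

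Context and shock-context exposure were set against the young groups across scan runs, so treatment and run cannot be told apart in these 4 comparisons. Context against young control called 28 probes higher and 47 lower, against 68.8% of all probes (18.4% higher, 50.4% lower), and shock-context called 22 higher and 42 lower, against 65.4% (16.1% higher, 49.3% lower). With quantile normalization the splits were 44 and 31, and 44 and 28. Those of all probes were then 11800 and 13260, and 11342 and 12226. In the context comparison 62 probes did not overlap (60.7% of all), and in the shock-context one 55 (59.8% of all).

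Kcnk2 read -1.44, -1.25, -1.39 and -1.49 in context and -1.59, -1.45, -1.20 and -1.88 in shock-context mice. These arrays lay between the young control and the young fear arrays without touching either. The differences from young control were 0.97 ± 0.12 (adjusted p = 3.93e-07) and 0.84 ± 0.12 (adjusted p = 3.18e-06), and they were 0.47 (adjusted p = 0.219) and 0.33 (adjusted p = 0.396) with normexp. Kcnj1, a renal channel dim in this tissue, read -4.00, -2.65, -3.37 and -3.61 in young control and -7.27, -8.25, -7.88 and -8.28 in context mice. It was not well above background on any context array and at least 9.49-fold lower there than in young control, a bound set by the lowest signal measured above background; 1 shock-context array of 4 measured it. Kcnk16 was at least 2.06-fold lower in shock-context than in young control mice; with the deposited values its change was -0.21 (adjusted p = 0.251). Kcnh4 was lower in context and shock-context by -2.30 and -2.08, and Kcnj15 by -2.25 and -2.28.

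Young fear against context called 57 probes higher and 20 lower, against 65.9% of all probes (46.1% higher, 19.8% lower), and against shock-context 52 higher and 18 lower, against 64.9% (46% higher, 18.9% lower). The groups did not overlap in 70 and 68 channel probes (62.1% and 64.8% of all). With quantile normalization the splits were 40 and 28, and 37 and 31. Those of all probes were then 13104 and 10320, and 12254 and 10196. Kcnk2 was higher in young fear mice in both, by 0.90 ± 0.12 (adjusted p = 1.38e-06) and 1.04 ± 0.12 (adjusted p = 2.96e-07), and Kcna3 by 1.32 and 1.36. Kcnj12 was lower in both, by -1.36 and -1.33, and Kcnh1 by -1.20 and -1.16. These comparisons share the young fear arrays.

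Context and shock-context arrays shared slides and run, and limma called 0 of the 109 probes between them, against 0% of all probes. At an unadjusted p below 0.05, 5 channel probes passed, and 2188 of all 38766 did. The groups did not overlap in 8 probes (6.97% of all). Of these 5 probes, 4 were of Kcnq1ot1 and 1 of a Kcnh gene. With only the brightest probe of each gene, the smallest p-values were those of Kcnk4, Kcnt2 and Kcnh2. Their changes were -0.27, 0.30 and -0.42, each with an adjusted p of 0.88.

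Of 25 measured partners of these channels and related genes, 7 rose and 4 fell in young fear against young control, none was called at 16 months, and 2 were higher and 5 lower in the age difference. Of the cytoplasmic subunits of Kcna channels, Kcnab2 rose by 1.29 ± 0.18 (adjusted p = 9.7e-06), Kcnab1 fell by 0.45 (adjusted p = 0.0047) and Kcnab3 changed by 0.09 (adjusted p = 0.418). Of the Kcnip subunits, which join Kcnd channels, Kcnip2 rose by 1.21 ± 0.19 (adjusted p = 2.51e-05), Kcnip3 by 0.77 and Kcnip1 by 0.46, while Kcnip4 changed by -0.08 (adjusted p = 0.479). Of the Dpp partners of Kcnd channels, Dpp6 rose by 0.61 ± 0.12 (adjusted p = 0.000269) and Dpp10 fell by 0.40 (adjusted p = 0.0163). Kcnmb2 and Kcnmb4, auxiliary subunits of Kcnma1, fell, by 0.87 and 0.52.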

How the data were processed

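RNA of 24 hippocampi (600 ng each, RIN 9.0 to 10.0 per the labels' protocols) was hybridized to 1-colour Agilent arrays. Per the file headers, the deposited scanner intensity was made with Agilent Feature Extraction 9.5.3.1, which subtracted the background and detrended each array. A deposited table of the authors' values, taken as log2 from its values, served as an alternative; how it was normalized is not given in the sources used here, and its columns share a median of 8.57. The mark for a spot well above background, another deposited value, was used as given.

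Levels were log2 intensity minus each array's 75th percentile. Spots marked as outliers were left out, spots of a probe averaged, and probes kept if well above background on at least 4 arrays. limma 3.58.1 (R 4.3.3) fitted 6 group means with 18 residual degrees of freedom and was tested on simulated data. Signal at the 75th percentile was 757 to 2137 in the first scan run and 3101 to 8369 in the second. The number of arrays limits the precision, and p-values measure the spread between single mice, taken as independent. In each first-run group, arrays 1 and 2 and arrays 3 and 4 were taken as pairs in an alternative fit. Their consensus correlation was 0.37 (slide: 0.18). With pairs as a block, 34.1% of all probes were called in young fear against 44.6% in the main fit. In old fear 10 were called, against 49. Gene names and mm9 positions came from the newer array design; 98 of 114 probes matched a RefSeq accession.

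In full were given up to 5 rises and 5 falls among called probes (3 and 3 across runs), a fixed panel of 17 genes (some of which are not reported here), and genes with probes called in opposite directions; a second Kcnc1 probe and others singled out beside these were chosen after their values were seen. Members and lists were chosen with earlier results of these data known. Alternatives were quantile and median scaling, normexp (offset 50), the deposited values, other filters, the slide, replicate number or array pairs as a block, 1 probe per gene, and leaving out each array. Masking the dim patch and taking medians relative to all probes were added after seeing the data. Replicate numbers and slides coincide in the first run: 15 of 24 pairs of same-numbered arrays had deviations correlated above 0.1 (range -0.42 to 0.65).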

Additional observations from a re-analysis of the deposited data

Results flagged for a closer look

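In 12 of 270 groups of 4 arrays tested, 1 array stood apart from the others by Dixon's criterion, which chance gives in about 1 group of 20. On old control array 2, Kcnk1 read -3.75 and Kcnma1 -3.67, both inside the dim patch, and a Kcnq1ot1 probe outside it (A_52_P474551) read -1.48. Shock-context array 4 stood apart for Kcne4 (-4.73), Kcnk1 (2.23), Kcnn2 (2.63) and a Kcnq1ot1 probe (A_51_P232763, -3.89). Context array 3 stood apart for Kcnc2 (1.02) and the upstream Kcnj4 probe (-0.75). Among young control arrays, array 1 stood apart for that Kcnq1ot1 probe (-5.01), array 2 for Kcnd2 (4.05) and array 3 for Kcna4 (1.21).

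The response to fear conditioning differed between 3 and 16 months, by a test of the difference itself, for 13 named probes. The old change minus the young change was -1.94 for Kcnk2, -1.60 for Kcna3, -0.87 for Kcnj6, -0.79 for the upstream Kcnh7 probe, -1.34 for the middle Kcnc1 probe and -0.92 for the downstream Kcnh3 probe. It was 1.27 for Kcnj12, 1.00 for Kcnk7, 0.87 for the brightest Kcnq1ot1 probe, 0.78 for Kcna4, 0.76 for Kcne1l, 0.70 for the downstream Kcnc1 probe and 0.53 for the upstream Kcnh3 probe. The Kcnk7 difference was not called in 11 of 16 fits that leave out an array, and was 0.17 (adjusted p = 0.538) with the deposited values. That of Kcna3 was 0.21 with normexp. At the dimmer probes of Kcnj6 and Kcnk7 the difference was 0.16 (adjusted p = 0.789) and 0.36 (adjusted p = 0.579).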

How the results depend on the processing

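Normexp background correction lowered the counts of called channel probes to 18 (young fear), 0 (old fear), 10 (age difference), 40 (shock-context), 38 (young fear against context) and 33 (against shock-context). The shares of all probes called fell as well, to 18.1%, 0%, 6.83%, 46.6%, 33.9% and 27.1% in the same order. With 1 probe per gene, and so fewer probes tested, the channel counts were 26 (young fear), 17 (age difference), 48 (context), 50 and 44. The shares over all genes were then 43.2%, 23.9%, 70.4%, 65.9% and 64.9%. The old fear count was 0 with the deposited values, with array pairs as a block and with the compared arrays alone. Of all probes 0.168%, 0.0258% and 0.00516% were called there. Leaving out each array gave 43 to 53 channel probes (young fear), 0 to 1 (old fear), 25 to 34 (age difference), 0 to 1 (old against young control), 67 to 73 (context), 57 to 67 (shock-context), 70 to 73 and 65 to 71 (young fear against these) and 0 to 0 (context against shock-context). Shares of all probes in these fits are not given here.

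With the replicate number as a block 56 probes were called in young fear, 35 in the age difference, 1 in old fear, 0 between controls and 0 between the context groups. The shares of all probes were 54.4%, 30.4%, 0.248%, 0.81% and 0.00258%. Of 36 called named values this block lost that of Kcnk7 between the ages. Array pairs as a block gave 38 and 24, against 34.1% and 18% of all probes. They lost 7 of the 36, among them Kcnn4 (adjusted p = 0.0937) and Kcnd2 (adjusted p = 0.127). Of 60 called named values, quantile normalization kept 52, median scaling 53, the deposited values 47, normexp 35, the slide as a random block 59, the compared arrays alone 56, and masking the dim patch, keeping outlier spots and dropping the filter 60 each. Causes were not tested.

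Directions that reversed, in young fear against young control unless said, were as follows. With normexp they were Kcna3 (-0.0309, and 0.21 in the age difference), Kcne4 (-0.0071), Kcnj10 (0.10), Kcnq3 (-0.30) and Kcnq1ot1 probe A_52_P534609 (-0.55). With quantile normalization they were Kcna1 (0.0077), Kcna2 (0.07), Kcnd2 (0.0227) and Kcnj10 (0.28). With median scaling they were Kcna2 (0.0356) and Kcnj10 (0.13), and with the deposited values Kcna1 (0.0041) and Kcnj10 (0.32). Leaving out an array reversed Kcnj10 (0.11 without young control 3, 0.0042 without young fear 3) and Kcnn2 (-0.05 and -0.10 without young control 3 or 4, -0.08 and -0.04 without young fear 1 or 2; highest 0.0895, without young fear 3).

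Of 60 subfamily medians under other scalings, 25 changed sign. With quantile normalization the young fear medians were 0.0152 (Kcna-d), 0.1026 (Kcnj), 0.0707 (Kcnk), 0.1327 (calcium- and sodium-gated) and 0.0733 (all), and with median scaling 0.0276, 0.0758, 0.0284, 0.1083 and 0.0709, with Kcnh at 0.0789. The old fear medians were 0.0188 (Kcna-d), 0.1021 (Kcne), 0.0461 (calcium- and sodium-gated) and 0.0249 (silent) with quantile normalization, and 0.0379, 0.0517 and 0.0476 for the first 3, 0.0229 (Kcnj) and 0.0072 (all) with median scaling. The age differences were -0.0298 (Kcnh) and -0.0311 (Kcnj) with quantile normalization, and -0.0303 (Kcna-d), -0.0188 (Kcnh) and -0.0582 (calcium- and sodium-gated) with median scaling. Medians relative to that of all probes, added after this was seen, changed sign in 1 of 60 (0.005, calcium- and sodium-gated, age difference, quantile).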

Other observations

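In the 27 genes with several probes on 1 strand, Kcnq1ot1 among them, the probe nearer the end of the gene changed more upward in old fear against old control in 24 genes (88.9%), against 61% of 8257 genes on the array. In old against young control it did so in 7 of 27 (25.9%), against 38.9% of all genes; both comparisons use the old control arrays, so they are not independent. In young fear against young control it did so in 15 of 27 (55.6%), against 49.7%. These counts kept the dim patch of old control array 2 and were not repeated without it. The probe nearer the end lies inside the patch in Kcnj16, Kcnv1, Kcnj9, Kcnj6 and Kcnn2. With the patch set to missing, the old fear changes of the first 4 went from 1.01, 0.97, 0.51 and 0.11 to 0.11, 0.16, 0.13 and -0.03. That of Kcnn2 stayed at 0.28. Across probes, which share arrays and are not independent, the old fear change had a Spearman correlation with the probe's GC content of -0.42 over all probes and -0.45 over the channel probes.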
